A study of Homo sapiens with 6 samples.

Results

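The class 3 semaphorins and their neuropilin and plexin receptors were followed in H1299 cells that overexpress lncBCAS1-4_1, a long non-coding RNA. The family was chosen by the read counts of this same comparison, in which SEMA3F was several-fold higher, and 10 genes were named by symbol: the ligands SEMA3A, SEMA3B, SEMA3C and SEMA3F and the receptors NRP1, NRP2, PLXNA1, PLXNA2, PLXNA3 and PLXND1. Of these, 9 were found among the 19201 entries of the count table and all 9 passed the filter on low counts, while PLXNA2 had no entry. The comparison set 3 libraries of H1299 cells carrying the lncBCAS1-4_1 overexpression against 3 libraries of wild-type H1299 cells. H1299 is a widely used line from a human non-small cell lung carcinoma and lacks functional p53. The labels describe no vector for the controls and give no time or dose, and they do not say whether replicates were separate cultures or whether the overexpressing cells were 1 clone or a pool. An effect of the overexpression procedure and an effect of the RNA therefore cannot be told apart, and each p-value reflects no more than the spread among these libraries, which may be technical. Because SEMA3F was picked for its difference in this very comparison, the values of the 9 members are given as a description, with no p, and where a member is said to pass or miss the table-wide threshold this describes the fit and supports nothing.

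Class 3 semaphorins are secreted proteins, known first as repellents of growing axons and later as regulators of vessel growth and of tumour cell migration. Most of them bind a neuropilin, which has no signalling domain of its own and passes the signal through a plexin of the A type or PLXND1. SEMA3A acts mainly through NRP1 and SEMA3F mainly through NRP2, SEMA3E can bind PLXND1 without a neuropilin, and both neuropilins also bind vascular endothelial growth factors. SEMA3B and SEMA3F lie close together in a part of the short arm of chromosome 3 that is often lost in lung cancer, and both have been studied there as growth-restraining genes. Furin-type proteases cleave class 3 semaphorins and so alter their activity.

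Total counts ran from 84531039 to 90102655 in the overexpressing libraries and from 87393887 to 92780032 in the controls. Of 6 epithelial markers 4 were measured, with a summed level of 1677 to 1890 CPM (the count scaled to the TMM-adjusted library size) in overexpressing cells and 1261 to 1429 CPM in controls, nearly all of it KRT8 and KRT18, while EPCAM and CDH1 had no entry. The part of these markers in the results below was not tested. Endothelial markers (3 of 6 measured) summed to 0.587 to 1.13 CPM in overexpressing cells and 0.479 to 0.845 CPM in controls, and fibroblast markers (3 of 6) to 2.26 to 3.58 CPM in overexpressing cells and 2.16 to 3.06 CPM in controls. Leukocyte markers (2 of 6) summed to 2.93 to 4.47 CPM in overexpressing cells and 2.75 to 3.65 CPM in controls. All 6 neuronal markers were measured, at 327 to 359 CPM in overexpressing cells and 312 to 336 CPM in controls, most of it the tubulin gene TUBB3. In bulk RNA, a change in the number of cells that express a gene and a change in RNA per cell cannot be told apart.

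The start regions of the class 3 genes on chromosome 3 are shown first, since SEMA3F is the gene on which the results turn and SEMA3B and SEMA3G are its relatives on the same chromosome. RefSeq start regions (GRCh38.p14), from 250 bases before to 50 bases after the annotated start, were found for 11 of the 13 genes looked up, the 10 members and the other class 3 ligands SEMA3D, SEMA3E and SEMA3G. Where a gene had several starts, the one nearest to the GENCODE start was taken. The windows are chr3:50154808-50155107 on the plus strand for SEMA3F, chr3:50267402-50267701 on the plus strand for SEMA3B and chr3:52445054-52445353 on the minus strand for SEMA3G, each written from 5′ to 3′ on the gene's own strand. Capitals mark matches to CACCTG or its reverse complement CAGGTG, the E-box that transcription factors of the ZEB and SNAI families bind.
SEMA3F: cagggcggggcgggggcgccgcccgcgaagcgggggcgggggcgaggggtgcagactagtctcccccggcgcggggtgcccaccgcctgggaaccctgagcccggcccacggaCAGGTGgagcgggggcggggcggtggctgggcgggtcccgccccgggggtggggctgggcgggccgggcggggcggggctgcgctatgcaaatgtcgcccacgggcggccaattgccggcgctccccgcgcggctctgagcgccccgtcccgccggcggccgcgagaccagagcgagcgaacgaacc
SEMA3B: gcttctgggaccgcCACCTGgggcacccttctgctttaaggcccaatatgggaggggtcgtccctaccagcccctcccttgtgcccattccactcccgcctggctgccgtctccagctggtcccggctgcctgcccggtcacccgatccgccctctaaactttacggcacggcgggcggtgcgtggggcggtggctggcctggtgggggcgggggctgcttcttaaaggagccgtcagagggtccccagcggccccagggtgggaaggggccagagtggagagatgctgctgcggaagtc
SEMA3G: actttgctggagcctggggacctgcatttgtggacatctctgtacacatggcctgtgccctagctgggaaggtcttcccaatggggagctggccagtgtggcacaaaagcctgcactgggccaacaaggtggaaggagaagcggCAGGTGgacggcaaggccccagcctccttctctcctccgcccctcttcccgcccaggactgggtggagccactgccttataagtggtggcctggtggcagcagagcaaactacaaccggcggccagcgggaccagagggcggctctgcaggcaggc
The SEMA3F window was 81.3% G and C with 44 CpG dinucleotides, against a median of 58.7% and 14 over the 35116 windows of this length in the table. It held 12 matches to the GC box GGGCGG on either strand, some of them overlapping each other, against 4 in the SEMA3B window and 3 in the SEMA3G window, and 45.0% of all windows held at least 1. The E-box stood once in each of these windows, with its first base at position -137 from the start in SEMA3F, -236 in SEMA3B and -106 in SEMA3G, and it overlapped no match to another motif searched. The windows of SEMA3C, SEMA3D, SEMA3E, NRP2, PLXNA1, PLXNA2, PLXNA3 and PLXND1 nearest to the GENCODE start held no E-box match, and 20.6% of all windows held one. No window nearest to the GENCODE start of these genes matched the interferon response core (GAAA, any 2 bases, GAAA), the AP-1 site TGANTCA or the repeat AGGTCA, any 3 bases, AGGTCA, of the type that the vitamin D receptor binds, on either strand. These were in 3.57%, 7.71% and 0.0057% of all windows. RefSeq also has starts of SEMA3F 0.3 kb and 4.0 kb downstream. The one at 4.0 kb had 1 match to the interferon response core, TTTCCTTTTC, from position -9, and the one at 0.3 kb had none. Matches describe the letters only and show no binding.

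SEMA3F (ENSG00000001617; chromosome 3, 50155045 to 50189075, plus strand, GRCh38), a secreted ligand that signals mainly through NRP2, had 815, 794 and 769 counts in the overexpressing libraries, against 224, 226 and 223 counts in the controls. All 3 overexpressing libraries were high, and the groups lay far apart with little spread within either. In scaled units SEMA3F was at 9.24 ± 0.60 CPM in overexpressing cells and 2.46 ± 0.07 CPM in controls (SD, n = 3 each), a 3.75-fold difference with a log2 fold change of 1.91 (SE 0.12). After a correction of each library for GC content and transcript length it was 1.66 (SE 0.11), or 3.15-fold. In the same fit 150 of 19101 entries had a higher log2 fold change than SEMA3F, and 185 had one after the correction. The antisense gene SEMA3F-AS1 overlaps the start of SEMA3F by 1041 bases, and since the sources used here do not give the strandedness of the libraries, its reads and those of SEMA3F cannot be told apart there. SEMA3F-AS1 was given 20, 12 and 13 counts in overexpressing cells and 14, 35 and 12 in controls. These counts do not bound its reads in the overlap, and its part in the SEMA3F counts was not tested.

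**Figure D1:**
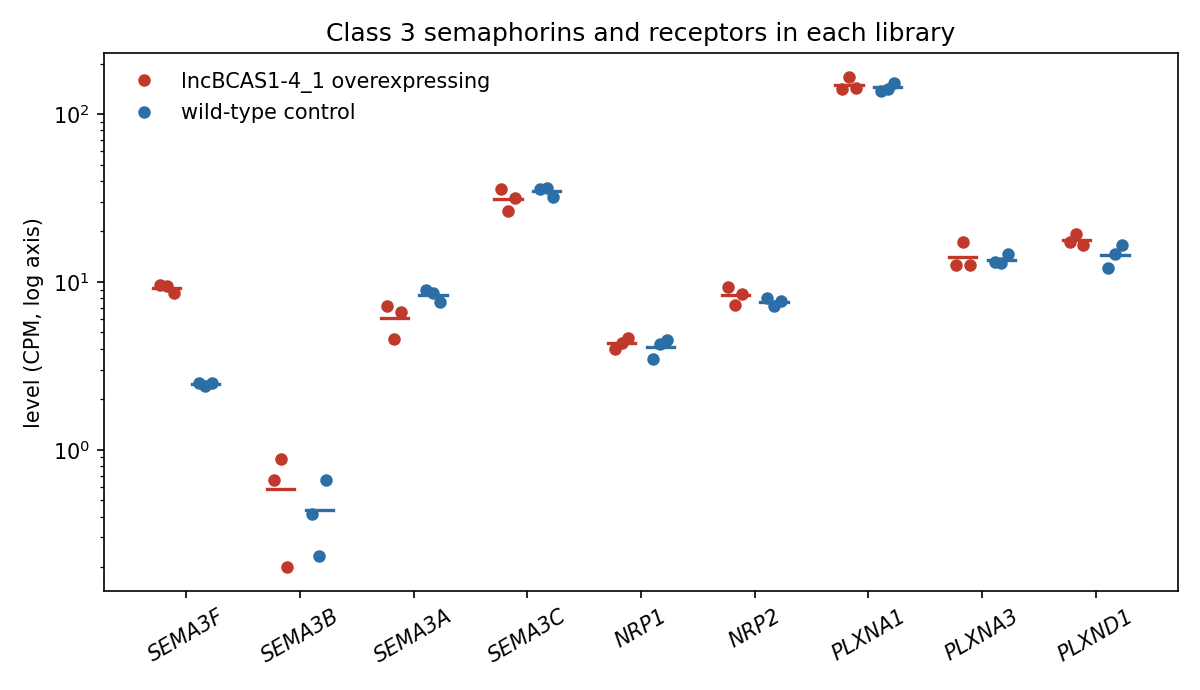
Level of the 9 measured members in every library, in CPM on a log axis, with overexpressing libraries in red to the left of the controls in blue and a bar at each group mean. SEMA3F stood at 8.55 to 9.66 CPM in overexpressing cells and 2.39 to 2.51 CPM in controls, and 6 of the other 8 members had overlapping groups.

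SEMA3B (ENSG00000012171; chromosome 3, 50267558 to 50277546), the closest neighbour of SEMA3F within the family, had few and scattered counts. Its counts were 56, 74 and 18 in overexpressing cells and 37, 22 and 59 in controls, so that the groups overlapped fully. The log2 fold change of 0.42 had an SE of 0.56, and leaving out overexpressing library 2 brought it to -0.011. At 0.584 ± 0.350 CPM in overexpressing cells and 0.435 ± 0.213 CPM in controls (SD, n = 3 each), SEMA3B was the lowest member measured.

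SEMA3A, the founding repellent ligand that acts mainly through NRP1, was on the low side in overexpressing cells. It had 609, 384 and 592 counts there and 798, 809 and 682 counts in controls, so the groups did not overlap. Overexpressing library 2 was the lowest of all 6. The log2 fold change of -0.45 (SE 0.17) did not pass the table-wide threshold, an adjusted p of 0.05 by edgeR, and after the GC and length correction it was 0.07 (SE 0.14). Without overexpressing library 1 it was -0.58 and passed, and without overexpressing library 2 it was -0.28.

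SEMA3C, a ligand often described as promoting tumour cell migration, was the most abundant class 3 semaphorin. It had 3016, 2208 and 2840 counts in overexpressing cells, against 3199, 3436 and 2901 in controls, with overlapping groups and overexpressing library 2 again the lowest. Its log2 fold change was -0.16 (SE 0.10) as fitted and 0.26 (SE 0.08) after the correction, and neither value passed. Without overexpressing library 2 the fitted value was -0.047, and without overexpressing library 1 it was -0.26.

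Of the class 3 ligands outside the 10 named genes, SEMA3E fell as fitted and SEMA3D and SEMA3G did not pass. SEMA3E, the ligand of PLXND1, had 697, 625 and 792 counts in overexpressing cells and 1091, 1153 and 1069 counts in controls, with every overexpressing library below every control. Its log2 fold change was -0.56 (SE 0.10; adjusted p = 0.0024 by edgeR over 19101 entries), and after the GC and length correction it was -0.09 (SE 0.09; adjusted p = 0.53). SEMA3D had 71, 48 and 77 counts in overexpressing cells and 57, 155 and 122 in controls (log2 fold change -0.68, SE 0.35, adjusted p = 0.17 by edgeR). Without control library 1, the low one of its group, the value for SEMA3D was -0.98 and passed (adjusted p = 0.030 by edgeR), and without control library 2, the high one, it was -0.40 (adjusted p = 0.49 by edgeR). SEMA3G was close to the limit of detection, at 16, 16 and 0 counts in overexpressing cells and 4, 4 and 17 in controls, and the 0 in overexpressing library 3 allows up to 3 counts, or 0.0334 CPM. Intervals and floors of this kind cover counting error only.

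The ligands fall into a GC-poor and a GC-rich group that follow the chromosomes. The canonical transcripts of the genes on chromosome 7, SEMA3A, SEMA3C, SEMA3D and SEMA3E, were 36.7% to 38.0% G and C, and those of the genes on chromosome 3, SEMA3B, SEMA3F and SEMA3G, were 58.6% to 63.9%. As fitted, all 4 ligands on chromosome 7 had negative log2 fold changes (-0.68 to -0.16, median -0.51) and all 3 on chromosome 3 had positive ones (0.42 to 1.91). The whole table moved with GC content too. Among 2284 tested entries under 40% G and C with a mean log2 CPM above 0, the median log2 fold change was -0.40, with 62.5% lower and 1.84% higher at the threshold. Among 2075 such entries at 60% or more, it was 0.28, with 1.54% lower and 53.2% higher. The part of GC content in the differences of the ligands was not tested beyond the correction. After it the chromosome 7 ligands ranged from -0.21 to 0.26 with a median of -0.01, and those on chromosome 3 were at 1.66 for SEMA3F (SE 0.11), 0.14 for SEMA3B (SE 0.54) and 0.31 for SEMA3G (SE 1.14).

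**Figure D2:**
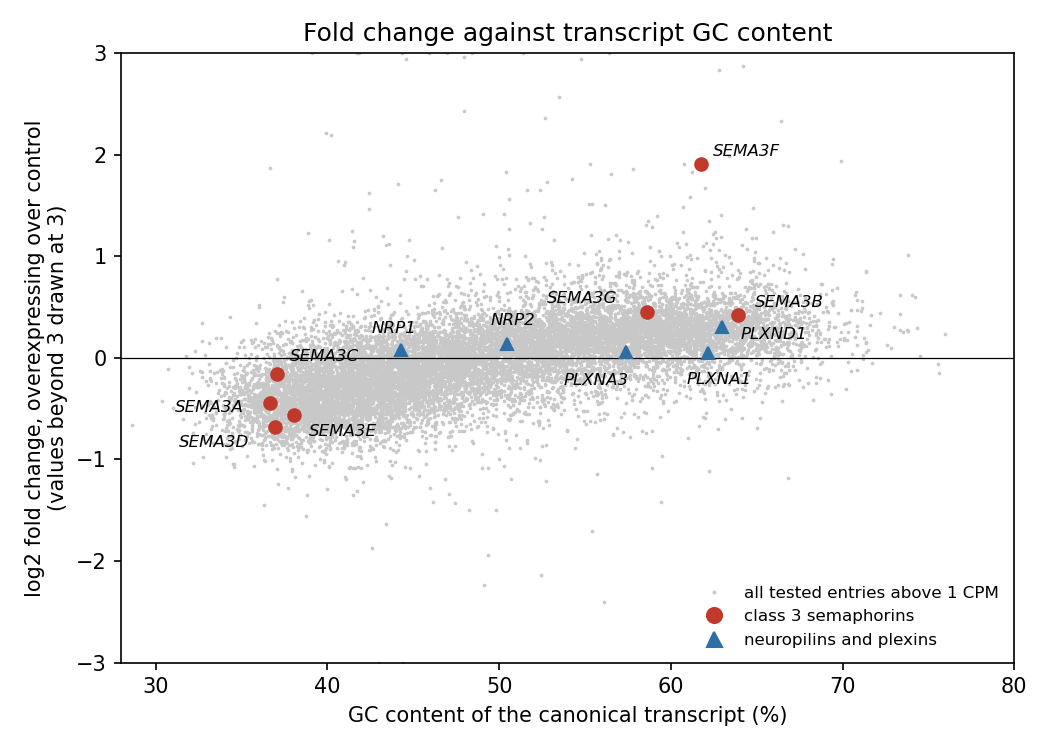
Log2 fold change of overexpressing over control cells against the GC content of the canonical transcript, with tested entries of a mean log2 CPM above 0 in grey, class 3 semaphorins as red circles and the measured neuropilins and plexins of the family as blue triangles. SEMA3A, SEMA3C, SEMA3D and SEMA3E lie among the other GC-poor entries, whose median was -0.40, while SEMA3F lies at 1.91, beside a median of 0.28 over GC-rich entries.

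To compare genes with each other, levels were divided by the length of the canonical transcript. On this scale of CPM per kb, the order in overexpressing cells among the members and SEMA3E was PLXNA1 (16.1), SEMA3C (6.41), PLXND1 (2.571), SEMA3F (2.562), PLXNA3 (1.30), NRP2 (1.26), SEMA3E (1.13), NRP1 (0.765), SEMA3A (0.756) and SEMA3B (0.183). In controls it was PLXNA1 (15.5), SEMA3C (7.15), PLXND1 (2.08), SEMA3E (1.67), PLXNA3 (1.25), NRP2 (1.15), SEMA3A (1.03), NRP1 (0.723), SEMA3F (0.682) and SEMA3B (0.137). SEMA3F thus stood at rank 4, overlapping PLXND1, in overexpressing cells, against rank 9, overlapping NRP1, in controls. PLXNA3 and NRP2 overlapped each other in both groups, as did NRP2 and SEMA3E and NRP1 and SEMA3A in overexpressing cells and NRP2 and SEMA3A in controls. The lengths are those of 1 annotated transcript per gene, and which isoforms H1299 expresses was not tested.

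Among the 7 class 3 ligands, SEMA3F made up 21.6%, 26.2% and 21.4% of the summed level per kb in the overexpressing libraries and 6.29%, 5.93% and 6.66% in the controls. SEMA3C held 57.2% ± 2.8 in overexpressing cells and 65.8% ± 1.4 in controls (SD, n = 3 each), and remained the leading ligand in both. SEMA3E held 10.1% ± 0.9 in overexpressing cells and 15.3% ± 0.4 in controls, and SEMA3A held 6.71% ± 0.94 in overexpressing cells and 9.49% ± 0.45 in controls (SD, n = 3 each). The summed level of all 7 was 11.2 ± 1.2 CPM per kb in overexpressing cells and 10.9 ± 0.5 CPM per kb in controls (SD, n = 3 each), a difference smaller than the spread of either group. These shares use levels without the GC and length correction.

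**Figure D3:**
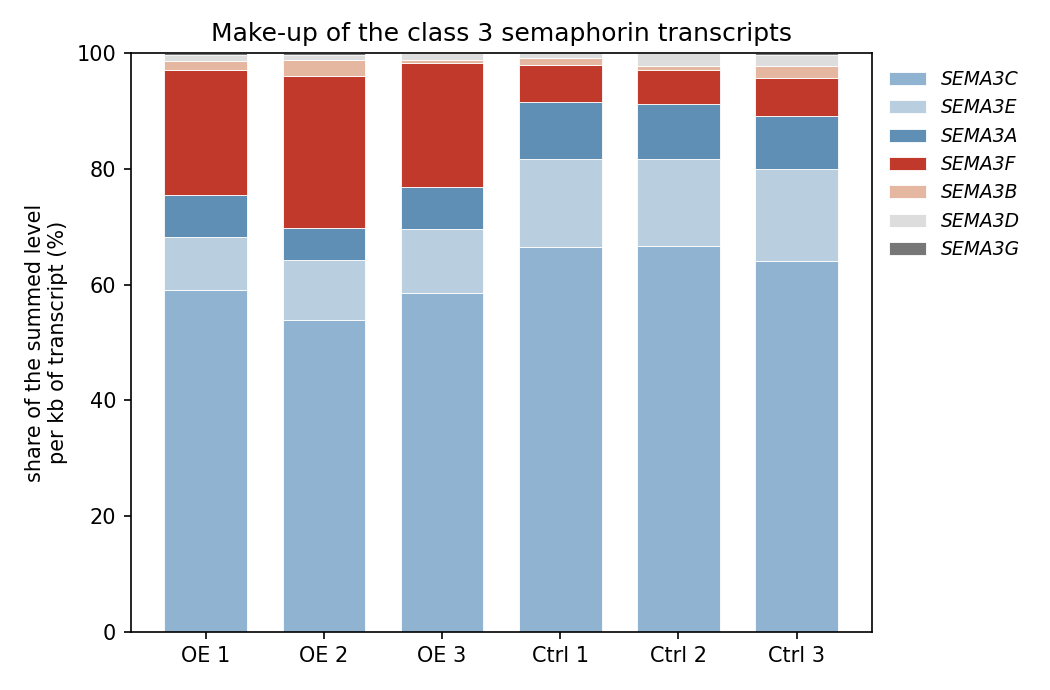
Share of each class 3 semaphorin in their summed level per kb of transcript, in percent, with the overexpressing libraries (OE) left of the controls (Ctrl). The SEMA3F segment, in red, spans 21.4% to 26.2% in overexpressing libraries and 5.93% to 6.66% in controls.

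The neuropilins showed no difference past the threshold. NRP2 (ENSG00000118257; chromosome 2, 205681990 to 205798133), the main binding partner of SEMA3F, had 787, 611 and 761 counts in overexpressing cells and 715, 680 and 690 in controls, with overlapping groups and a log2 fold change of 0.13 (SE 0.12; 0.21 after the correction, SE 0.12). NRP1, the main binding partner of SEMA3A, had 337, 359 and 418 counts in overexpressing cells, against 311, 403 and 403 in controls, also overlapping (log2 fold change 0.08, SE 0.15; 0.33 after the correction, SE 0.14). The ratio of NRP2 to NRP1, in CPM per kb, was 1.66 ± 0.29 in overexpressing cells and 1.61 ± 0.29 in controls. SEMA3F reached 2.05 ± 0.29 times the level of NRP2 in overexpressing cells and 0.595 ± 0.018 times in controls, on the same scale (SD, n = 3 each).

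The plexins, which carry the signal into the cell, did not pass the threshold either. PLXNA1 was the most abundant member, with 11862, 13817 and 12914 counts in overexpressing cells and 12316, 13386 and 13858 in controls. Its groups overlapped, and its log2 fold change of 0.05 had an SE of 0.07. PLXNA3 had 1059, 1449 and 1137 counts in overexpressing cells and 1178, 1229 and 1314 in controls (log2 fold change 0.06, SE 0.14), with overexpressing library 2 the highest of all 6. PLXND1, the receptor of SEMA3E, was the plexin with the largest log2 fold change among these members, 0.30 (SE 0.12; 0.19 after the correction, SE 0.10). Its counts were 1463, 1609 and 1502 in overexpressing cells and 1074, 1384 and 1483 in controls. In CPM the groups did not overlap, at 16.7 to 19.3 CPM in overexpressing cells and 12.05 to 16.5 CPM in controls. It did not pass the threshold with all libraries, and without control library 3 its log2 fold change was 0.41 and passed. Without control library 1 it was 0.19, and without overexpressing library 2 it was 0.24, and neither passed. A p that misses the threshold does not show that a receptor was unchanged.

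Counted over the family, 1 of 9 members, SEMA3F, was past the threshold as higher and none as lower, with the same counts after the correction. Over all 19101 entries tested, 18.3% were higher and 19.7% lower at this threshold, and 11.4% higher and 11.1% lower, or 22.6% in all, after the correction. The groups did not overlap in CPM for 3 of 9 members, SEMA3F and PLXND1 above and SEMA3A below, beside 24.7% of all entries above, 26% below and 50.7% in all. The median log2 fold change was 0.08 over the 9 members and 0.07 without SEMA3F, beside -0.0040 over all entries. Since the family was chosen for SEMA3F, nothing further is read from these counts.

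**Figure D4:**
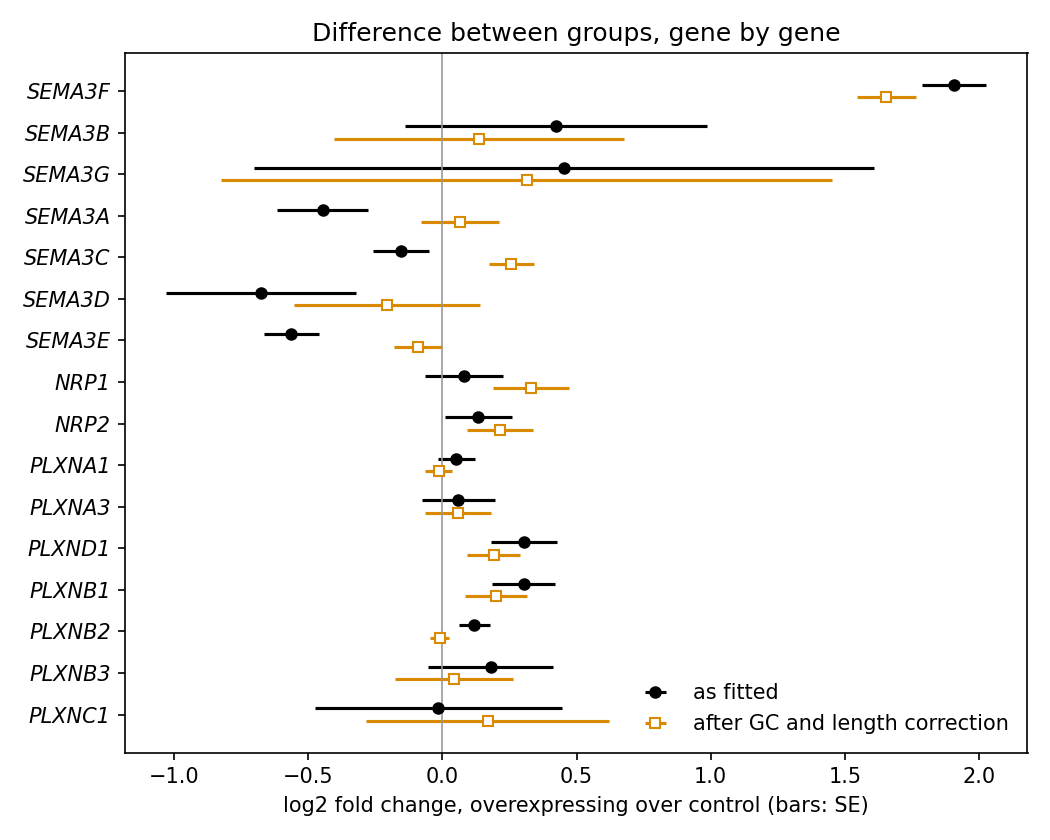
Log2 fold change of overexpressing over control cells for the class 3 ligands, the neuropilins and the plexins, as fitted (black circles) and after the GC and length correction (orange squares), with bars of 1 SE. SEMA3F lies at 1.91 and 1.66, and every other gene shown lies between -0.68 and 0.45.

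Of 63 further genes of the semaphorin pathway, 56 were measured, and 14 were higher and 8 lower as fitted (median 0.11 on the log2 scale). Of all entries, 18.3% were higher and 19.7% lower in the same fit. The pathway transcripts were 36.9% to 67.9% G and C, with a median of 55.4%. With a mean log2 CPM above 0, 40.7% of tested entries at 50% to 60% were higher and 5.72% lower as fitted. At 40% to 50% these shares were 8.8% and 37%. The corrected fit had 6 higher and 12 lower (median -0.02), beside 11.4% and 11.1% of all entries. Shared between the fits were 5 of the higher and 4 of the lower calls among the 56, beside 2871 entries with the same call in both fits among all 19101. No gene of this list passed a 2-fold filter in either direction, which 1.34% of all entries passed as higher and 0.775% as lower. Among the 4 other plexins measured none passed: the log2 fold changes were 0.30 for PLXNB1 (SE 0.12), 0.12 for PLXNB2 (SE 0.06), 0.18 for PLXNB3 (SE 0.23) and -0.02 for PLXNC1 (SE 0.46). Of the 10 class 4 to 7 semaphorins measured, which are mostly membrane-bound, only SEMA4B was past the threshold, at 47.0 ± 2.6 CPM in overexpressing cells and 39.6 ± 2.4 CPM in controls (SD, n = 3 each). Its log2 fold change was 0.25 (adjusted p = 0.0145 by edgeR), and 0.21 without overexpressing library 2 and 0.20 without control library 2, when it missed the threshold. After the correction it was 0.0072, and SEMA4G, SEMA6B and SEMA7A were then lower.

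Of 3 measured proteases that can process semaphorins, 2 were higher, beside 18.3% of all entries as fitted and 11.4% after the correction. Their transcripts were 55.2% to 62.0% G and C. Among tested entries with a mean log2 CPM above 0, 40.7% at 50% to 60% and 53.2% at 60% or more were higher as fitted. FURIN, which cleaves class 3 semaphorins at basic sites, was at 139 ± 4 CPM in overexpressing cells and 98.2 ± 7.6 CPM in controls (SD, n = 3 each), a log2 fold change of 0.51 (SE 0.06) at an adjusted p of 0.00035 by edgeR. The related convertase gene PCSK7 was at 54.5 ± 2.1 CPM in overexpressing cells and 40.1 ± 0.8 CPM in controls (log2 fold change 0.44, adjusted p = 0.00034 by edgeR), although it overlaps TAGLN on the opposite strand by 3128 bases. Both still passed after the correction, at 0.29 (adjusted p = 0.00060) for FURIN and 0.27 (adjusted p = 0.0076) for PCSK7 by edgeR. PCSK6, the remaining convertase measured, did not pass (log2 fold change 0.62, SE 0.29).

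Of 6 measured vascular endothelial growth factor ligands and receptors, whose ligands share the neuropilins, 3 were higher as fitted and none lower. Of all entries, 18.3% were higher and 19.7% lower. The median GC content of the 6 was 58.1%, and 40.7% of tested entries of 50% to 60% with a mean log2 CPM above 0 were higher. After the correction 1 of the 6 was higher, beside 11.4% of all entries. VEGFA, the main angiogenic member, was at 16.1 ± 0.8 CPM in overexpressing cells and 11.8 ± 0.3 CPM in controls (SD, n = 3 each). On the log2 scale this was 0.46 (adjusted p = 0.0030 by edgeR), and VEGFA still passed after the correction at 0.38 (adjusted p = 0.0078). VEGFB and VEGFC had log2 fold changes of 0.35 each as fitted, and 0.02 and 0.14 after the correction, when neither passed. VEGFC also missed the threshold without overexpressing library 2, control library 2 or control library 3, at 0.28, 0.33 and 0.31.

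Partners and effectors of plexins, 30 genes and all measured, had 8 higher and 7 lower as fitted and 3 higher and 9 lower after the correction. At these thresholds 18.3% of all entries were higher and 19.7% lower as fitted, and 11.4% and 11.1% after the correction. The effector transcripts were 37.7% to 64.5% G and C, with a median of 54.3%. With a mean log2 CPM above 0, 40.7% of tested entries at 50% to 60% were higher and 5.72% lower as fitted. At 40% to 50% these shares were 8.8% and 37%. In both fits 2 effectors were higher and 4 lower, beside 2871 of all 19101 entries with the same call in both. RRAS (0.21 as fitted, -0.14 after the correction) and RAP1B (-0.34 as fitted, 0.22 after it), both small GTPase genes, passed in opposite directions. Lower genes as fitted included ARHGEF12, an exchange factor that binds B-type plexins, at 97.3 ± 6.0 CPM in overexpressing cells and 152.9 ± 7.9 CPM in controls (SD, n = 3 each; log2 fold change -0.65, and -0.28 after the correction), and the kinase gene GSK3B (-0.37, and 0.02 after it). Higher ones included MICAL2, an actin-oxidising enzyme (0.31, and 0.18 after the correction), the adaptor GIPC1, which binds the neuropilin-1 tail (0.29, and -0.04 after it), and the GTPase RHOA (0.24, and 0.27 after it). Of these 5, ARHGEF12, MICAL2 and RHOA passed in both fits, and GSK3B and GIPC1 only as fitted.

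SEMA3F and SEMA3B start 112.5 kb apart, and 18 of 20 listed genes around them were measured. As fitted, 11 of the 18 were higher and 1 was lower (median 0.34 on the log2 scale), against 18.3% and 19.7% of all entries. The listed neighbours were 48.0% to 62.6% G and C, with a median of 58.9%. Among tested entries of 50% to 60% G and C with a mean log2 CPM above 0, 40.7% were higher and 5.72% lower as fitted. In the corrected fit 2 were higher and 2 lower, with a median of 0.06, beside 11.4% and 11.1% of all entries. Of the tested protein-coding genes on the list, those nearest to SEMA3F on either side were close to 0. RBM5, an RNA-binding protein gene whose start lies at -66.1 kb from that of SEMA3F, was at 0.0020 (SE 0.05) and GNAI2, a G-protein subunit gene at 71.2 kb, was at 0.06 (SE 0.04; -0.21 after the correction, when it passed as lower).

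RASSF1 and ZMYND10 were the neighbours that were higher in both fits. RASSF1, a Ras-association tumour suppressor gene starting 185.9 kb from SEMA3F, had 3933, 3776 and 3769 counts in overexpressing cells and 2403, 2235 and 2360 in controls (log2 fold change 0.80, SE 0.07, adjusted p = 0.00015 by edgeR; 0.49 after the correction, adjusted p = 0.00052). ZMYND10, a gene of cilia assembly next to it, had 399, 401 and 402 counts in overexpressing cells, against 216, 216 and 245 in controls (log2 fold change 0.91, SE 0.14, adjusted p = 0.00099 by edgeR; 0.60 after the correction, adjusted p = 0.0084). In both genes all overexpressing libraries lay above all controls. In CPM this held for 12 of the 18 measured neighbours, beside 24.7% of all entries, and the reverse held for 1 of the 18, beside 26%. RASSF1 overlaps its antisense gene RASSF1-AS1, which had 49 to 93 counts, by 790 bases. ZMYND10 overlaps its antisense gene ZMYND10-AS1, which had no entry, by 4588 bases. With strandedness not given, antisense reads cannot be told apart from those of either gene in these overlaps, and their part was not tested. TUSC2, which shares 2756 bases with HYAL2 on the same strand, had a log2 fold change of 0.33 as fitted (adjusted p = 0.00062 by edgeR) and 0.07 after the correction (adjusted p = 0.25). RBM6 was the lower neighbour (log2 fold change -0.15, adjusted p = 0.029 by edgeR; -0.13 after the correction, adjusted p = 0.032), and it lost the call on leaving out overexpressing library 1 or 2 or control library 1 or 2, at -0.13, -0.14, -0.13 and -0.15.

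**Figure D5:**
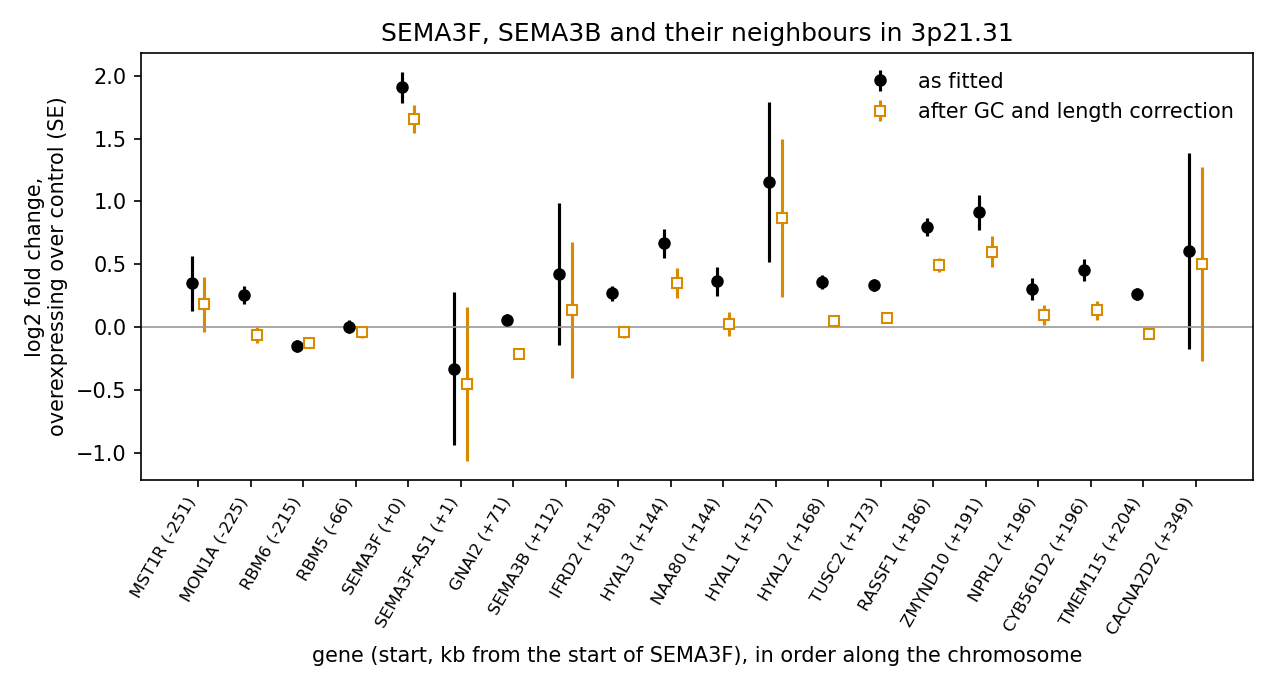
Log2 fold change of overexpressing over control cells, with SE, for SEMA3F, SEMA3B and their measured neighbours in order along chromosome 3, as fitted (black circles) and after the GC and length correction (orange squares). The numbers in brackets are distances of gene starts from the SEMA3F start in kb. SEMA3F at 1.91 stands at a distance from RBM5 (0.0020) and GNAI2 (0.06), while RASSF1 and ZMYND10 lie at 0.80 and 0.91.

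Over the 6 libraries, the entries with a symbol and a mean log2 CPM of at least 1 whose log2 CPM followed SEMA3F most closely were ISG15, C15orf48, MLYCD, TFPI2 and CYP24A1, with Pearson r of 0.999 for the first 3 and 0.998 for the last 2, among 12216 entries compared. A total of 447 entries had an r above 0.98. These points are 2 groups of 3 libraries that share their depth and their group difference, so a high r describes little beyond a tight separation of the groups. The log2 fold changes ranged widely, from 0.78 for TFPI2 and 0.98 for MLYCD to 2.19 for C15orf48, 2.87 for ISG15 and 11.87 for CYP24A1, set beside 1.91 for SEMA3F. CYP24A1 was at 2908 CPM in overexpressing cells and 0.778 CPM in controls, so it reached the mean level asked for only through the overexpressing group.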

How the data were processed

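Per the labels' protocols, the authors isolated total RNA with TRIzol, cleaned reads with fastp, used HISAT2 for alignment to GRCh38, StringTie and gffcompare for transcripts, and edgeR for testing. Not given in the sources used here: versions, library kit, strandedness and how reads became gene counts. Deposited by the authors were whole-number raw counts per gene in 1 table of 19201 entries, each with at least 10 counts in 3 libraries or more.

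Libraries were grouped by title. Counts were tested over the whole table with edgeR 4.0.16 (R 4.3.3): TMM scaling, filterByExpr (min.count 10, min.total.count 15; 19101 entries kept), the quasi-likelihood F-test with the group alone, and Benjamini-Hochberg adjustment over all entries at 0.05. Dividing the log2 fold change by √F gave the SE. Total counts of 84531039 to 92780032 leave genes well under 1 CPM resting on few counts. Each gene's canonical transcript in GENCODE 44 supplied GC content and length, known for 99.3% of tested entries. The correction fitted natural splines (5 degrees of freedom each) of every library's log2 CPM deviation and entered them as offsets. All 101 listed entries had a symbol that matched their Ensembl ID. The scripts were tested on simulated data. No pair within a group agreed within counting noise (chi-square over its degrees of freedom, 11.6 to 22.7), so each library counted as 1 sample.

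The members, lists and alternatives were chosen with earlier results of these data known. Named genes were all members, the other class 3 ligands and plexins, up to 3 higher and 3 lower genes of every other list by smallest p, and the 5 entries most like SEMA3F. GNAI2, RBM5, PCSK6, SEMA4G, SEMA6B, SEMA7A, RRAS, RAP1B, SEMA3F-AS1 and the marker genes were named after their values were seen. A gene that this rule names is not reported here. Alternatives were DESeq2 size factors or library size alone, other filters, DESeq2 1.42.0, limma-voom (limma 3.58.1), the correction, a replicate block, a 2-fold filter and leaving out each library. Start regions are from RefSeq.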

Additional observations from a re-analysis of the deposited data

How the results depend on the processing

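Over the alternatives the log2 fold change of SEMA3F stayed between 1.66 and 1.96, lowest after the GC and length correction, and was 1.88 to 1.96 without 1 library. Among the members, 2 were higher with a filter of at least 1 CPM in 3 libraries and with DESeq2, where PLXND1 joined SEMA3F, and 1, SEMA3A, was lower with library size alone, DESeq2 and limma-voom. Without 1 library, 1 to 2 members were higher and 0 to 1 lower, 2586 to 3439 entries higher and 2867 to 3730 lower, 10 to 16 pathway genes higher and 7 to 9 lower, and 8 to 11 neighbours higher and 0 to 1 lower. The correction gave 2182 entries higher and 2128 lower, 6 pathway genes higher, and 2 neighbours higher and 2 lower. With the replicate block added to it, 1745 entries were higher and 1652 lower, 6 pathway genes higher and 2 neighbours higher. Of 7250 entries called as fitted, 2871 kept their call after the correction. A 2-fold filter left 255 entries higher and 148 lower, and 0 pathway genes or neighbours in either direction. Single genes were followed through the alternatives for 33 of those named. Among these 33 the sign changed after the correction, without and with the replicate block, for SEMA3A (0.065 and 0.049), SEMA3C (0.26 and 0.25), PLXNA1 (-0.015 and -0.017), GSK3B (both 0.016), GIPC1 (both -0.039), PLXNC1 (0.17 and 0.079) and PLXNB2 (both -0.011), and for SEMA3G with limma-voom (-0.42). Named genes outside the 33 that changed sign after the correction included RRAS (-0.14), RAP1B (0.22), GNAI2 (-0.21) and RBM5 (-0.043). Among the 33, ranges without 1 library that crossed 0 were -0.011 to 0.85 for SEMA3B, -0.019 to 0.16 for NRP1, -0.024 to 0.10 for PLXNA1, -0.11 to 0.14 for PLXNA3, -0.28 to 0.31 for PLXNC1 and -0.61 to 0.27 for SEMA3F-AS1. The cause of these changes was not tested. Libraries with the same replicate number did not deviate together (r = -0.0735, -0.262 and -0.438 over 10091 entries). Pairs with unlike numbers had r from -0.155 to 0.359. Deviations from a mean of 3 libraries are tied to each other, so these values cannot decide whether libraries with the same number share a culture or batch. The block alone gave 2681 entries higher and 3014 lower, 10 pathway genes higher and 0 neighbours lower. VEGFC, SEMA4B and RBM6 then missed the threshold, while no other call changed among the 33 genes followed. RRAS and RAP1B were not among these 33. SEMA3B, SEMA3G and SEMA3F-AS1 had few counts that scattered between libraries (SE 0.56, 1.16 and 0.61 on the log2 scale).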
